A study of Mus musculus with 28 samples.

Results

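The question here was whether the response of the spleen to lipopolysaccharide (LPS) differed between mice that carry the PPARg deletion and mice that do not. LPS is the bacterial membrane component sensed through TLR4. The measure was the LPS by genotype interaction of each gene, that is, the LPS response in Null spleens (with LPS minus without) minus the LPS response in wild-type spleens. It was taken over the 16 arrays of the experiment that held both genotypes, out of 28 arrays in the study, with 4 arrays per genotype and challenge. Of 18193 genes with a probe set naming 1 gene, 12730 were tested, because they exceeded the 40th percentile of their array on 4 or more arrays. The other 5463 stayed low on nearly all arrays. Both genotypes were PPAR g flfl, so Pparg is floxed in each. The Null mice were MMTV-Cre+ and express the Cre recombinase from the MMTV promoter, and the wild-type mice were MMTV-Cre-. Each genotype and challenge held 2 arrays from mice on a control diet and 2 from mice on a diet with abscisic acid (ABA), and the diets were averaged with diet as a term of the fit. Age, sex, LPS dose and time after LPS were not used here. Spleen is the labelled source, while the protocols mention splenocytes.

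PPARg is a nuclear receptor that pairs with a retinoid X receptor and binds repeats of the half-site AGGTCA. It is known for switching on fatty acid uptake and storage genes and for damping inflammatory transcription in macrophages. After LPS, TLR4 activates NF-kB and interferon pathways, and the spleen gains transcripts of cytokines, chemokines and interferon-stimulated genes. The mouse spleen also makes red blood cells, and inflammation is known to change that output. MMTV-Cre is used to delete floxed genes in epithelial and haematopoietic cells, and the extent of deletion in each spleen cell type was not measured by these arrays.

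Pparg itself could not serve as a check of the genotype. Its only probe set read between 2.31 and 3.56 log2 units on the 16 arrays, close to the lowest value of the table, 2.24. No source used here places it inside or outside the deleted part. Its interaction was -0.02 ± 0.35 (SE). Arrays correlated at 0.942 to 0.995, and the number of arrays limits the precision. Xist, a transcript of the inactive X chromosome, was high on 1 of 4 arrays without LPS and 2 of 4 with LPS in each genotype. With the diets pooled its high arrays were thus equal in number in both genotypes (-0.20 ± 5.73). Within each diet they were not, and its interaction was -5.30 on the control diet arrays and 4.91 on the ABA diet arrays. Cpa1, which encodes a pancreatic carboxypeptidase, exceeded the lowest value by more than 2 log2 units on 2 of the 4 Null arrays without LPS and on no other array, and was too low elsewhere to be tested. Adipoq, a fat cell hormone, did so on 1 and 2 wild-type arrays without and with LPS, and on 0 and 2 Null arrays. No label ties an array to an animal, and the p-values therefore cover the spread between these 16 samples. In some groups the 2 replicates differed in Xist, such as 13.05 and 2.24 for wild-type ABA diet arrays without LPS. Such replicates were not repeats of 1 RNA sample. Where replicates had like Xist values, their spread may still be technical. In bulk RNA, fewer cells of a type and less RNA per cell cannot be told apart.

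No gene passed the test for a difference in LPS response between the genotypes. Of 12730 genes, 0 had an interaction with an adjusted p under 0.05 (limma, Benjamini-Hochberg, percent called 0%), and the smallest adjusted p was 0.950. Before adjustment 357 genes (2.8%) had a p under 0.05, of which 157 (1.23%) were positive and 200 (1.57%) negative. An even spread of p-values would give 636.5, so small p-values were fewer than that. For a p under 0.01 the numbers were 49 and 127.3. The same 16 arrays did show a large LPS response: 1966 genes were called in wild-type spleens (15.4%), of which 1116 rose and 850 fell. In Null spleens 1003 were called (7.88%), of which 493 rose and 510 fell. Between Null and wild-type spleens 0 genes were called by limma without LPS (0%, with 173 or 1.36% at an unadjusted p under 0.05) and 0 with LPS (0%, with 381 or 2.99%).

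**Figure D1:**
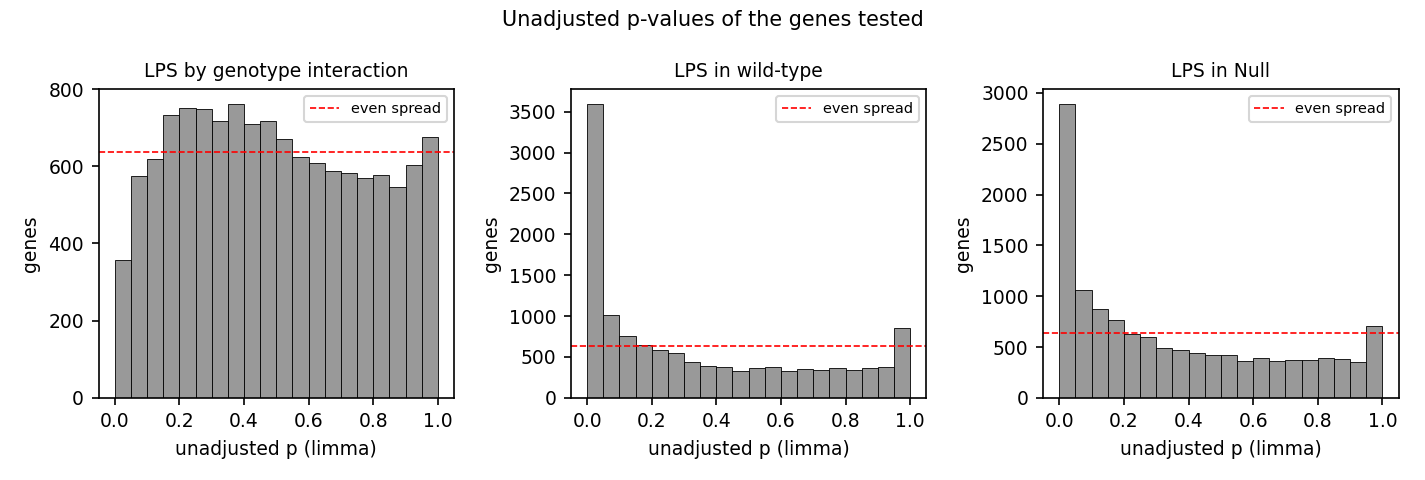
Histograms of the unadjusted limma p-values of 12730 genes for the interaction, the LPS response in wild-type and the LPS response in Null spleens, in bins of 0.05; the dashed line is the 636.5 genes per bin of an even spread. The first bin holds 357 genes for the interaction, 3597 (28.3%) for LPS in wild-type and 2894 (22.7%) for LPS in Null spleens.

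The unequal counts of 1966 and 1003 are no test of a difference between the genotypes. Of the genes called in wild-type spleens, 1934 of 1966 moved in the same direction in Null spleens. Of those called in Null spleens, 1001 of 1003 moved the same way in wild-type spleens, and all 793 genes called in both had the same direction. Across the 12730 genes the responses correlated at a Pearson r of 0.87, with a slope of Null on wild-type of 0.70. Error in the wild-type values lowers such a slope, so 0.70 alone does not measure a weaker Null response. The arrays of the 2 responses are separate, but genes are not independent replicates, so no p is given. Against the responses of a separate wild-type-only experiment, wild-type and Null slopes were 0.96 and 0.78 over 10629 genes. They were 1.00 and 1.06 for 264 genes that rose there by over 2 log2 units, and 0.78 and 0.57 for 130 that fell by over 2. The precision of the test was limited: the median half-width of the 95% interval of an interaction was 0.76 log2 units. For 6157 genes (48.4%) the interval lay wholly within 1 log2 unit of 0, which leaves differences of up to 2-fold, and for 11257 (88.4%) within 2 log2 units. The share within 1 log2 unit was far lower among strong LPS responders. It was 19 of the 264 genes that rose by over 2 log2 units in the wild-type-only experiment (7.20%). Of the 130 that fell by over 2 log2 units there, it was 4 (3.08%). The interaction itself exceeded 1 log2 unit in size in 610 genes, 2 in 105 and 3 in 22.

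**Figure D2:**
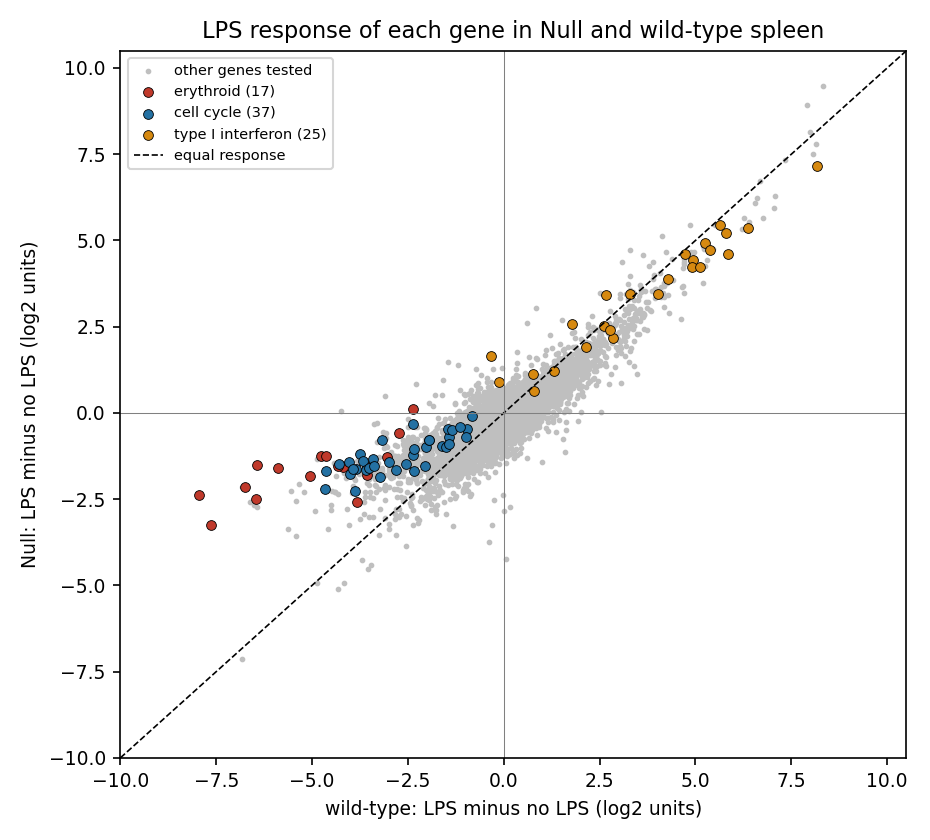
LPS response of each of the 12730 genes tested in wild-type (horizontal) and Null (vertical) spleens, in log2 units, with the erythroid, cell cycle and type I interferon lists in colour and equal responses on the dashed line. The 17 erythroid and 37 cell cycle genes lie above the line, with wild-type responses below 0, and the 25 interferon genes have interactions between -1.24 and 2.00.

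The strongest LPS-induced genes rose in both genotypes. To avoid choosing them on the arrays compared, they were chosen in the separate wild-type-only experiment of 12 arrays, in which 3143 of 11334 genes were called (27.7%). Values per array are given below in the order of control diet replicates 1 and 2, then ABA diet replicates 1 and 2. Acod1, which makes the antimicrobial metabolite itaconate, read 2.88, 2.76, 2.78 and 2.58 in wild-type spleens without LPS against 10.91, 11.62, 10.27 and 10.77 with LPS. The Null spleens gave 2.56, 2.92, 2.58 and 2.92 without LPS against 9.89, 10.47, 10.26 and 11.52 with LPS. With LPS the genotypes overlapped, and every array with LPS lay far above every array without. Acod1 rose by 8.14 ± 0.33 log2 units (SE) in wild-type and 7.79 ± 0.33 in Null spleens, an interaction of -0.35 ± 0.46 with a 95% interval of -1.37 to 0.66. Mmp13, a collagenase, rose from values of 2.24 to 2.31 in both genotypes. With LPS it read 9.14, 9.78, 12.43 and 11.01 in wild-type and 11.98, 11.21, 11.59 and 12.07 in Null spleens, which overlap, and the interaction was 1.14 ± 0.66. Saa3, an acute phase protein, read 11.60, 12.55, 14.42 and 13.10 in wild-type and 13.48, 13.34, 13.77 and 13.36 in Null spleens with LPS, an interaction of 1.01 ± 0.56. For Mmp13 and Saa3 the 4 Null arrays with LPS lay closer together than the 4 wild-type arrays. On the control and ABA diet arrays alone the interactions were 2.13 and 0.15 for Mmp13 and 2.17 and -0.14 for Saa3. The pooled values thus average a large and a small one, and the difference between diets did not pass for either (limma adjusted p 0.764). Il1rn, which blocks the interleukin-1 receptor, rose by 8.08 and 7.50 (interaction -0.57 ± 0.38), the neutrophil chemokine Cxcl2 by 6.21 and 5.33 (-0.87 ± 0.44) and the T cell chemokine Cxcl9 by 6.56 and 6.09 (-0.47 ± 0.73). Cxcl2 read 2.24 to 2.56 without LPS, near the lowest value.

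Gzmb, a protease of cytotoxic granules, and Upp1, which splits uridine, combined large induction with small spread. Gzmb read 10.20, 10.40, 10.34 and 9.97 in wild-type and 9.43, 10.07, 9.22 and 9.89 in Null spleens with LPS, and between 2.93 and 3.59 on all 8 arrays without. The LPS arrays of the genotypes overlapped by 1 Null array. Gzmb rose by 7.08 ± 0.17 in wild-type and by 6.29 ± 0.17 in Null spleens, and the interaction of -0.79 ± 0.24 had an unadjusted p of 0.00602 and did not pass (limma adjusted p 0.950). Upp1 read 9.08, 9.32, 8.61 and 8.90 in wild-type and 8.01, 8.52, 8.45 and 8.67 in Null spleens with LPS. Without LPS it read 2.54, 2.55, 2.61 and 2.62 in wild-type and 2.92, 3.06, 2.62 and 2.92 in Null spleens, near the lowest value, where size is not well measured. It rose by 6.40 ± 0.16 and by 5.53 ± 0.16, an interaction of -0.86 ± 0.23 (unadjusted p 0.00244, limma adjusted p 0.950). Both genes rose in each genotype.

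Slc40a1, the iron exporter ferroportin, and Cd163, a macrophage receptor that takes up haemoglobin, were among the genes that fell most, and they fell in both genotypes. Slc40a1 read 13.33, 12.50, 12.61 and 13.82 in wild-type spleens without LPS against 8.06, 7.08, 9.78 and 7.81 with LPS. Null arrays read 13.82, 13.00, 13.81 and 12.98 without LPS against 9.42, 8.28, 8.28 and 7.95 with LPS. The genotypes overlapped under each condition. It fell by 4.88 ± 0.53 log2 units in wild-type and by 4.92 ± 0.53 in Null spleens, an interaction of -0.04 ± 0.76 with an interval of -1.68 to 1.61. Cd163 fell by 6.84 ± 0.67 and by 7.13 ± 0.67 (interaction -0.29 ± 0.94), down to between 2.24 and 4.99 with LPS. Clec4g, a lectin of sinusoidal endothelium, had a response of -1.04 ± 0.49 in wild-type (adjusted p 0.184) and fell by 2.17 ± 0.49 in Null spleens, an interaction of -1.13 ± 0.69. Apol11b, of the apolipoprotein L family, stood apart from these. It fell by 4.25 ± 1.22 in wild-type spleens and had a response of 0.06 ± 1.22 in Null spleens, an interaction of 4.31 ± 1.73 (unadjusted p 0.0284, limma adjusted p 0.950). On 1 Null control diet array without LPS it read 3.51, while the other 3 read 8.85 to 10.56.

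Most strongly induced genes had a smaller fitted rise in Null spleens. Of 264 genes that rose by over 2 log2 units in the wild-type-only experiment, 222 had a smaller rise in Null than in wild-type spleens, against 7018 of 10629 genes with a negative interaction among all genes tested in both experiments. Their median responses were 2.85 in the wild-type-only experiment, 2.82 in wild-type and 2.26 in Null spleens, and their median interaction was -0.49 against -0.14 for all 10629. Of the 264, 17 had an unadjusted p under 0.05, all negative, and 0 passed after adjustment. The mean of these genes lay between 9.13 and 9.83 on wild-type and between 8.98 and 9.29 on Null arrays with LPS, which overlap. Without LPS it lay between 6.17 and 6.63 and between 6.39 and 7.04. By diet, the median was -0.82 on the control diet arrays alone and -0.13 on the ABA diet arrays alone, and with the mean of erythroid genes as a covariate it was 0.01. That mean itself differed with LPS and genotype on these arrays. Here and below, the covariate can therefore take up part of the interaction itself. Of 130 genes that fell by over 2 log2 units, 66 had a smaller fall in Null spleens, with a median interaction of 0.01. Among these, 17 had an unadjusted p under 0.05, all with a positive interaction.

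Rhd and Trim10, genes of red blood cell precursors, had the largest positive interactions of all genes tested. Here and below, list members counted as rising or falling are those called by limma. After LPS 16 of 17 erythroid genes tested were called as falling in wild-type spleens (background 6.68% of all genes). In Null spleens 0 of 17 were called as falling (background 4.01%), which does not mean that none fell. The difference itself did not pass for any of them. The median LPS response of the list was -4.64 log2 units in wild-type and -1.58 in Null spleens, against -0.02 for all genes in Null spleens. All 17 interactions were positive, with a median of 3.23 against -0.09 for all genes tested. Of the 17, 7 had an unadjusted p under 0.05, but 0 passed after adjustment, and the median half-width of their 95% intervals was 3.41. In the wild-type-only experiment 9 of 16 of these genes were called as falling and 0 as rising. Of 10629 genes tested in both experiments, 1300 were called as falling there and 1816 as rising. The median of the 16 was -2.52, which lies closer to the Null value than to the wild-type value above.

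Rhd, the carrier of the Rh blood group antigen, had the largest interaction of the list. It read 11.51, 12.50, 12.48 and 9.34 in wild-type spleens without LPS against 3.43, 3.05, 3.23 and 4.32 with LPS. For Null spleens the values were 6.15, 13.10, 10.72 and 11.86 without LPS against 9.88, 7.35, 5.83 and 9.31 with LPS. With LPS every Null array lay above every wild-type array, and without LPS the first Null array on the control diet lay below all others. Rhd fell by 7.95 ± 1.37 in wild-type spleens and had a response of -2.37 ± 1.37 in Null spleens (adjusted p 0.337), an interaction of 5.59 ± 1.94 with an interval of 1.36 to 9.81 (unadjusted p 0.0138, limma adjusted p 0.950). Slc4a1, the anion exchanger band 3 of the red cell membrane, read 14.40, 14.34, 14.87 and 12.80 without and 10.42, 8.40, 8.11 and 10.42 with LPS in wild-type spleens. The Null arrays read 10.53, 14.67, 13.65 and 14.61 without and 13.15, 11.89, 10.30 and 13.09 with LPS. Its genotypes overlapped in both conditions, and the interaction was 3.51 ± 1.41. Hemgn, a nuclear protein of blood progenitors, read 8.90, 4.40, 5.39 and 8.15 in wild-type and 12.51, 10.81, 7.96 and 11.11 in Null spleens with LPS, and its interaction was 4.62 ± 1.89. Trim10, a ring finger protein of terminal erythroid maturation, read 6.44, 4.40, 2.99 and 6.39 in wild-type and 10.36, 9.07, 6.30 and 10.05 in Null spleens with LPS, with an interaction of 4.94 ± 1.99. For Hemgn and Trim10 the genotypes overlapped with LPS.

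**Figure D3:**
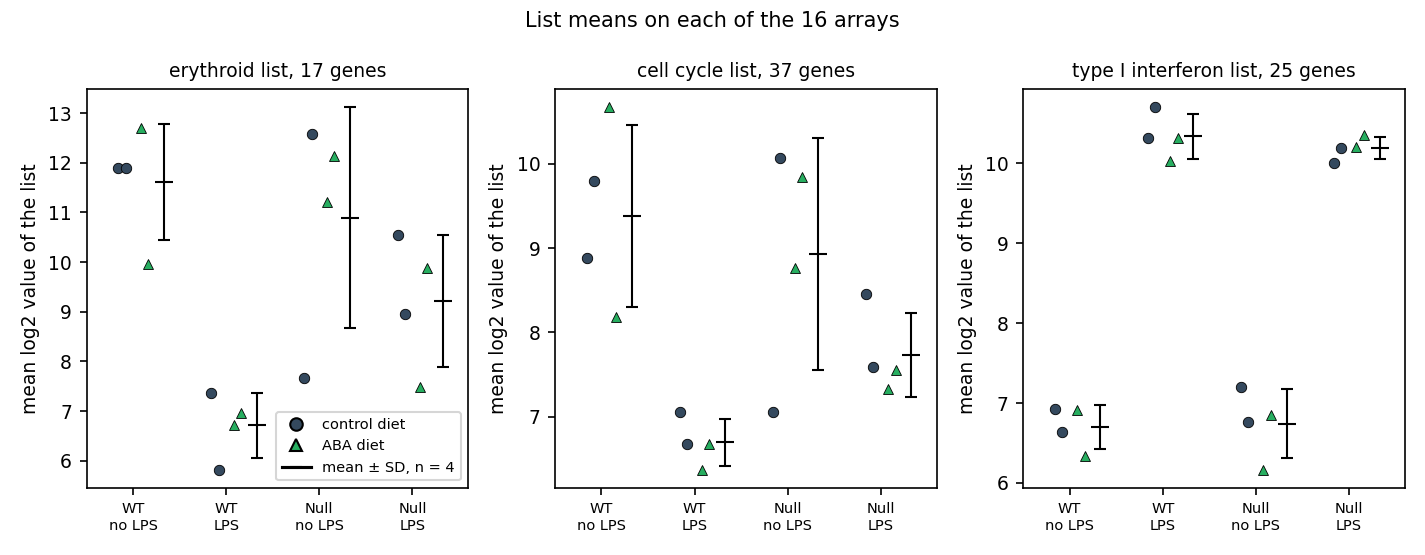
Mean log2 value of the erythroid (17 genes), cell cycle (37) and type I interferon (25) lists on each of the 16 arrays, by genotype and challenge; circles are control diet, triangles ABA diet, and bars the mean ± SD of 4 arrays. With LPS the erythroid means lie between 5.82 and 7.36 in wild-type and between 7.48 and 10.55 in Null spleens, and 1 Null array without LPS lies at 7.67.

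The starts of Rhd, Hemgn and Trim10 are shown because these genes moved together and each holds the motif AGATAA, the core bound by GATA factors, searched on both strands. The sequences are from RefSeq (GRCm38.p6), run 5′ to 3′ from 250 bases before to 50 bases after the start of the gene on its own strand, and have the motif in capitals, which in Trim10 lies on the opposite strand and reads TTATCT. Rhd is at chr4:134864286-134864585 on the plus strand, Hemgn at chr4:46404134-46404433 on the minus strand and Trim10 at chr17:36869324-36869623 on the plus strand.
Rhd: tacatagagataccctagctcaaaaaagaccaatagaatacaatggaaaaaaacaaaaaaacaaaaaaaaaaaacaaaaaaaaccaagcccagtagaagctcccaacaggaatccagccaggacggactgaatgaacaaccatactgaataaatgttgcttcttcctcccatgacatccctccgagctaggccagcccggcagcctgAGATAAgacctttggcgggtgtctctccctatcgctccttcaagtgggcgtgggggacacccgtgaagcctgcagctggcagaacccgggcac
Hemgn: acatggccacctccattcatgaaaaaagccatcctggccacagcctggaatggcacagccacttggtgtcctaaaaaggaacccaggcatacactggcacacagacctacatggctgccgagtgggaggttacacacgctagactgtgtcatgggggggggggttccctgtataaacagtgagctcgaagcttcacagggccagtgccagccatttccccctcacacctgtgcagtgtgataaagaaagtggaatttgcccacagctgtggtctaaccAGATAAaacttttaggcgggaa
Trim10: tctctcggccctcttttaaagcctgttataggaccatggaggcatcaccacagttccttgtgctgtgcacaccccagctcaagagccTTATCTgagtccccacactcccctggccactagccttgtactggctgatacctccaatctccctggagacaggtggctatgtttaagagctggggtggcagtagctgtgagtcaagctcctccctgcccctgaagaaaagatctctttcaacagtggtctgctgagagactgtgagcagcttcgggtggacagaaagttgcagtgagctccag
Of the 17 erythroid genes tested, 13 had a sequence in the table and 6 of these held AGATAA (Alas2, Epb42, Hemgn, Kel, Rhd and Trim10), against 11.2% of all 32851 promoters. A match is a description of the sequence only.

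The erythroid values moved with single arrays and with diet. The list mean was 7.67 on the first Null control diet array without LPS, against 11.20 to 12.58 on the other 3 Null arrays without LPS and 9.95 to 12.70 on the 4 wild-type arrays. Leaving each array out in turn gave median interactions of 2.21 to 3.87, the lowest without that array. On the control diet arrays alone the median was 4.88 and on the ABA diet arrays alone 1.38. Without the 5 arrays with high Adipoq it was 1.79 with 17 of 17 interactions positive. These 5 include both Null control diet arrays with LPS, so every value given without them rests on ABA diet arrays alone for Null spleens with LPS, and diet and the left-out arrays cannot be told apart there. Without the 2 arrays with high Cpa1 the median was 4.59. Null spleens without LPS then rest on the low array at 7.67 and the one at 11.20, so the low array weighs more there. The mean of the 7 fat genes tested lay between 4.73 and 7.31 on wild-type and 4.96 and 5.45 on Null arrays without LPS, and between 4.99 and 8.70 and between 4.63 and 7.92 with LPS. The mean of the 7 pancreas genes tested lay between 4.20 and 5.12 on wild-type and 4.54 and 12.61 on Null arrays without LPS, and between 3.49 and 3.97 and between 4.17 and 4.34 with LPS. The part of these markers, of diet and of the first Null array in the erythroid result was not tested.

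Cell division genes had a negative median response in both genotypes. In wild-type spleens 24 of 37 cell cycle genes were called as falling (6.68% of all genes were). In Null spleens 0 of 37 were called as falling (4.01% of all genes were). The median response was -2.55 in wild-type and -1.34 in Null spleens. In the wild-type-only experiment it was -1.06, which lies closer to the Null value. There 7 of 34 were called as falling, against 1300 of 10629 genes tested in both experiments. All 37 interactions were positive, with a median of 1.28, of which 3 had an unadjusted p under 0.05 and 0 passed. Mki67, the proliferation marker Ki-67, read 12.69, 13.02, 14.12 and 11.65 without and 9.64, 8.27, 9.10 and 9.06 with LPS in wild-type spleens. Among Null arrays the values were 10.16, 13.52, 12.80 and 13.43 without and 11.88, 10.76, 9.76 and 10.94 with LPS. With LPS the genotypes did not overlap, and the interaction was 2.22 ± 1.07 with an interval of -0.11 to 4.54. Ccna2, the cyclin of S phase, had an interaction of 2.95 ± 1.31 (unadjusted p 0.0433). The list median was 0.70 without the first Null control diet array without LPS and was 0.67 without the 5 arrays with high Adipoq. With the mean of the erythroid list as a covariate it was -0.31, of opposite sign, but that mean also moved with LPS and genotype.

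Most interferon-induced genes rose in both genotypes. Of 25 type I interferon-stimulated genes, 21 rose in wild-type (background 8.77%) and 22 in Null spleens (background 3.87%), with median responses of 4.03 and 3.45 and a median interaction of -0.32. Ifit3, an interferon-induced antiviral protein, read 11.88, 11.98, 10.53 and 11.69 in wild-type and 10.91, 11.28, 11.40 and 11.03 in Null spleens with LPS, which overlap, and had the smallest p of the list (interaction -1.24 ± 0.55, unadjusted p 0.0435). Of 22 interferon-gamma-induced genes 19 and 18 rose, with a median interaction of -0.48, which was -1.10 on the control diet arrays, 0.08 on the ABA diet arrays, -0.18 without the arrays with high Adipoq and 0.07 with the erythroid covariate. Tap1, the peptide transporter of antigen presentation, rose by 4.30 ± 0.45 and 2.89 ± 0.45 (interaction -1.41 ± 0.64). Socs1, a suppressor of cytokine signalling, read 4.71, 6.84, 2.24 and 5.26 in wild-type spleens with LPS and 2.24 to 2.30 on all other arrays, so 3 wild-type arrays with LPS stood apart from the other 13. Its interaction was -2.51 ± 0.91 (unadjusted p 0.0172, limma adjusted p 0.950). Socs1 did pass in limma when the 5 arrays with high Adipoq were left out, with an interaction of -2.76 and an adjusted p of 0.0165. That alternative was chosen after seeing the data. The left-out arrays include the wild-type LPS array at 2.24, the one that did not rise, and the one at 6.84. Wild-type spleens with LPS then rest on the arrays at 4.71 and 5.26, so this pass depends on which arrays were dropped.

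Of 29 cytokine and chemokine genes, 19 rose in wild-type and 13 in Null spleens, where 8.77% and 3.87% of all genes rose, so fewer genes were called in Null spleens in general. The median interaction was -0.07, and it was 0.09 with arrays centred on their medians and 0.22 without the arrays with high Adipoq. Tnf rose by 2.38 ± 0.51 and 2.02 ± 0.51 (interaction -0.36 ± 0.72) and Il6 by 3.24 ± 0.77 and 3.74 ± 0.77 (0.50 ± 1.09). Without LPS Il6 read the lowest value, 2.24, on every array and Tnf read 2.24 to 2.98. The size of a rise from there is not well measured. Il1b rose by 3.21 ± 0.75 in wild-type spleens and had a response of 2.37 ± 0.75 in Null spleens (adjusted p 0.0763), an interaction of -0.84 ± 1.06. All 3 cytokine intervals span 0 and reach beyond 1 log2 unit, so a 2-fold difference in either direction lies within them. Of 26 TLR4 and NF-kB genes 13 rose in wild-type and 7 in Null spleens, against 1116 and 493 of all 12730 genes, with a median interaction of -0.41. Tlr4, the LPS receptor, had a response of -0.59 and -0.51, called in neither genotype (interaction 0.08 ± 0.47), and its co-receptor Cd14 rose by 3.55 and 2.68 (-0.87 ± 0.67). Rel, the NF-kB subunit c-Rel, rose by 1.64 ± 0.32 in wild-type spleens and had a response of 0.65 ± 0.32 in Null spleens (-0.99 ± 0.45).

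Among 25 immediate-early genes, 20 had a negative interaction, with a median of -0.40, and 3 had an unadjusted p under 0.05. Junb, an AP-1 transcription factor, read 7.78, 8.02, 7.12 and 7.78 in wild-type and 5.96, 5.72, 7.49 and 7.37 in Null spleens with LPS. The 2 Null control diet arrays were the low ones, and the interaction was -1.78 ± 0.74. Dusp1, a phosphatase that ends MAP kinase signalling, rose by 2.67 ± 0.28 and by 1.62 ± 0.28 (-1.05 ± 0.40). Of the 17 acute phase genes 14 and 13 rose, against 8.77% and 3.87% of all genes. Their median interaction of -0.23 was 0.27 on the control diet arrays, with 14 of 17 positive, and -0.80 on the ABA diet arrays. Without the 5 arrays with high Adipoq the type I interferon list median was -0.10, the TLR4 and NF-kB median 0.08 and the immediate-early median 0.01. On the ABA diet arrays alone they were 0.07, -0.02 and 0.02, and with arrays centred on their medians, which moves the median of all genes from -0.09 to 0.06, they were -0.17, -0.26 and -0.24.

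**Figure D4:**
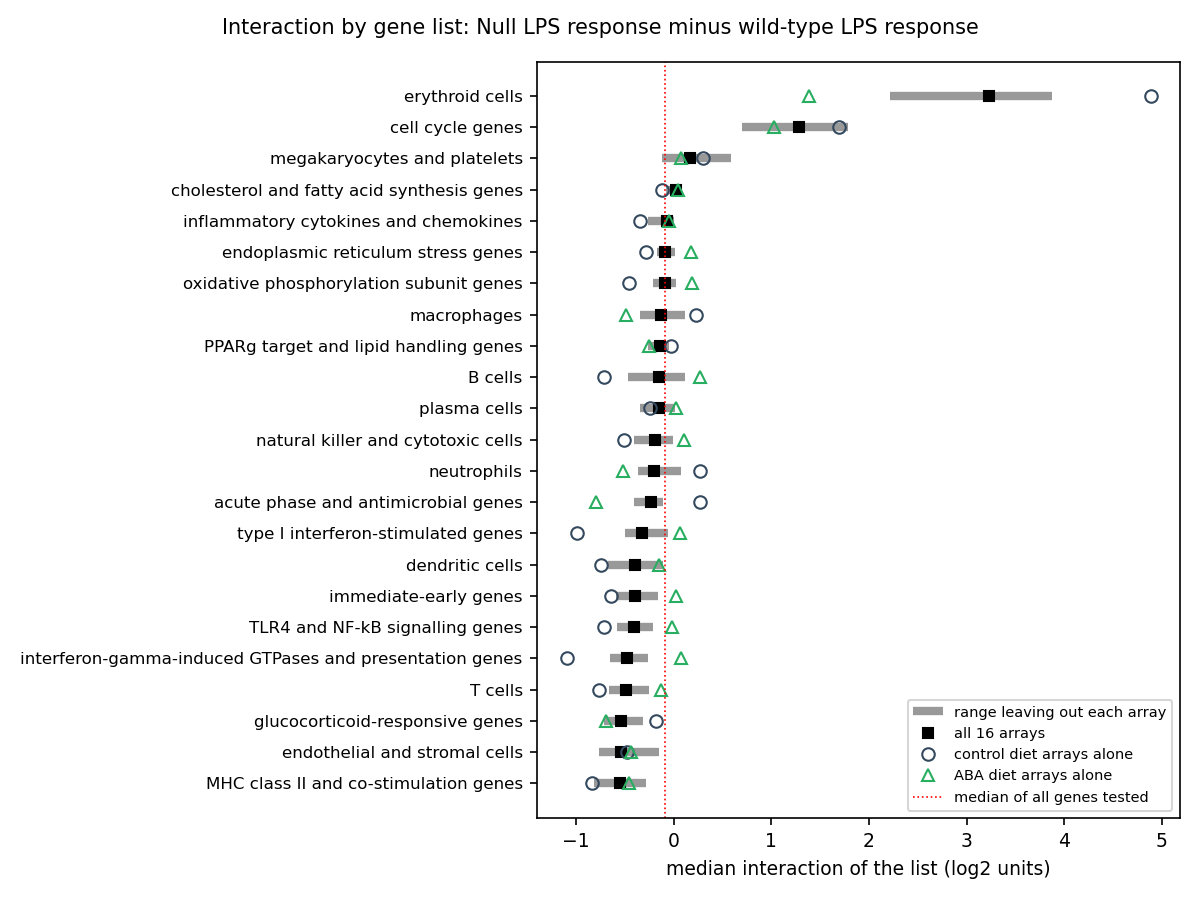
Median interaction of each gene list in log2 units (squares), the range when each of the 16 arrays was left out (grey bars), and the medians on the control diet (circles) and ABA diet (triangles) arrays alone; the dotted line is the median of all genes tested, -0.09. The erythroid list at 3.23 and the cell cycle list at 1.28 stand to the right, and all other lists drawn lie between -0.55 and 0.17.

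Genes of lipid handling, many of them known PPARg targets, gave no call. Of 32 PPARg target and lipid handling genes tested, 4 rose and 6 fell in wild-type spleens, where 8.77% of all genes rose and 6.68% fell. In Null spleens 4 rose and 6 fell, against 3.87% and 4.01% of all genes. For the interaction limma called 0, and 0 had an unadjusted p under 0.05. The median interaction was -0.14, and 0.01 with centred arrays. For 11 of the 32 the 95% interval lay within 1 log2 unit of 0. Lancl2, known as a receptor for ABA, had a response of -1.27 ± 0.53 and -0.95 ± 0.53, called in neither (interaction 0.32 ± 0.75). Oxidative phosphorylation genes had 29 of 34 intervals within 1 log2 unit of 0, 0 genes called in either genotype and a median interaction of -0.09, which was 0.09 after quantile normalization and 0.06 with centred arrays. The endoplasmic reticulum stress median was -0.09 and was 0.07 under both of these. The cholesterol synthesis median was 0.03. Of the 15 glucocorticoid-responsive genes 5 rose in wild-type and 4 in Null spleens, against 8.77% and 3.87% of all genes. Their median interaction was -0.54, but 0.09 without the arrays with high Adipoq, with 10 of 15 positive, and 0.07 with the erythroid covariate.

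Markers of other spleen cells gave list medians between -0.55 and 0.17. They were -0.15 for B cells, -0.49 for T cells, -0.19 for natural killer and cytotoxic cells, -0.13 for macrophages, -0.40 for dendritic cells, -0.20 for neutrophils, -0.16 for plasma cells and 0.17 for megakaryocytes. Several turned sign with the arrays used. The B cell median was 0.42 without the arrays with high Adipoq (16 of 17 positive), 0.27 on the ABA diet arrays and 0.39 with the erythroid covariate. The macrophage median was 0.25 without the arrays with high Adipoq (17 of 22 positive), 0.23 on the control diet arrays, 0.30 with the erythroid covariate and 0.02 with quantile normalization or centred arrays. The neutrophil median was 0.26 on the control diet arrays and 0.10 without the arrays with high Adipoq. With the erythroid covariate the medians were 0.14 for T cells, 0.44 for dendritic cells and 0.51 for plasma cells. MHC class II and co-stimulation genes had a median of -0.55, with 14 of 15 negative, and endothelial and stromal genes -0.54, with 21 of 23 negative. Of all 12730 genes 7930 were negative. Without the arrays with high Adipoq the MHC class II median was -0.11, with 6 of 15 positive, and with the erythroid covariate -0.09, with 6 positive. Tek, the angiopoietin receptor of endothelium, read 4.79, 4.38, 3.58 and 4.74 in wild-type and 6.24, 5.01, 5.14 and 4.94 in Null spleens without LPS. With LPS it read 3.56, 3.09, 3.58 and 3.56 and 3.09, 3.09, 3.09 and 3.06. Null spleens started above wild-type spleens and ended at or below them. The values 3.09 and 3.58 recurred between arrays, so the spread of Tek and the size of its fall are poorly measured. Tek had a response of -0.93 ± 0.30 in wild-type (adjusted p 0.0543) and fell by 2.25 ± 0.30 in Null spleens, an interaction of -1.33 ± 0.42 (unadjusted p 0.00796, limma adjusted p 0.950). Without the 5 arrays with high Adipoq the endothelial median was 0.09, and with the erythroid covariate 0.02.

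Pancreas genes gave the most negative list median, -2.85 over 7 tested, and it came from 2 arrays. Ctrl, a pancreatic chymotrypsin-like protease, read 9.38 and 13.43 on the second replicate of each diet of Null spleens without LPS and 2.24 to 2.98 on the other 14 arrays, giving an interaction of -4.29 ± 2.73. Without these 2 arrays the list median was 0.75. The fat and liver lists, with 7 and 4 genes tested, had medians of -0.34 and 0.09.

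The genes of smallest unadjusted p were a mixed group, none of which passed. Cat, the peroxide-degrading enzyme catalase, has been described as a PPARg target. It read 11.17, 11.02, 11.28 and 11.31 without and 9.29, 8.82, 9.99 and 9.02 with LPS in wild-type spleens. Values in Null spleens were 11.13, 10.56, 11.42 and 10.93 without and 10.10, 10.18, 9.95 and 11.00 with LPS. With LPS the genotypes overlapped by a single pair of arrays, 9.99 against 9.95. Cat fell by 1.91 ± 0.25 in wild-type spleens and had a response of -0.70 ± 0.25 in Null spleens (adjusted p 0.115), an interaction of 1.21 ± 0.35 (unadjusted p 0.00481, limma adjusted p 0.950). The control diet arrays gave 1.33 and the ABA diet arrays 1.09. Its other probe set gave 0.94. The start of Cat at chr2:103485104-103485403 (GRCm38.p6, RefSeq, minus strand) is shown because PPARg and its partner bind repeats of AGGTCA; it holds a single half-site AGGTCA, in capitals, which 16.3% of all promoters hold on either strand.
Cat: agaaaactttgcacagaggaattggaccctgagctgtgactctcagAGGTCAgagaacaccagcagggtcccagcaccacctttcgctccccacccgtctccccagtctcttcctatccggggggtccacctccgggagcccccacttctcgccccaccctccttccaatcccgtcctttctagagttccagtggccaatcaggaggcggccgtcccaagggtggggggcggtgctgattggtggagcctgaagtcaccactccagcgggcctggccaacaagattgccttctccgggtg

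Fbxw17, an F-box protein, read 4.25, 4.62, 4.17 and 4.59 without and 6.12, 6.71, 6.38 and 6.56 with LPS in wild-type spleens. Null spleens read 5.07, 5.05, 4.79 and 4.32 without and 5.30, 5.45, 6.16 and 5.46 with LPS. It rose by 2.03 ± 0.22 in wild-type and had a response of 0.78 ± 0.22 in Null spleens (adjusted p 0.0516), an interaction of -1.25 ± 0.31. Thbs4, a thrombospondin of the extracellular matrix, rose by 2.45 ± 0.30 in wild-type and had a response of 0.93 ± 0.30 in Null spleens (-1.52 ± 0.42). Vars, a valyl-tRNA synthetase, read 3.77, 5.88, 3.79 and 4.30 in wild-type and 2.27, 2.35, 2.35 and 2.30 in Null spleens with LPS. The Null values lie near the lowest value, and the interaction was -2.18 ± 0.55. Smug1 and Gstz1, a DNA repair glycosylase and a tyrosine-breakdown enzyme, rose by 0.94 ± 0.16 and 0.85 ± 0.21 in wild-type spleens and had a response of -0.04 and -0.36 in Null spleens. Galnt15, Zswim7, Serpina10, Babam1 and Ifi203 had negative interactions of -0.51, -0.68, -0.62, -0.49 and -0.52. Each of these, like Smug1 and Gstz1, repeated some values between arrays, so its spread is poorly measured. Med12, a subunit of the Mediator complex, read 7.82, 7.81, 7.67 and 7.59 in wild-type and 7.08, 6.94, 7.29 and 7.20 in Null spleens with LPS. The groups did not overlap there, and it fell by 1.17 ± 0.16 in Null spleens with a response of -0.40 ± 0.16 in wild-type spleens (interaction -0.76 ± 0.22).

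**Figure D5:**
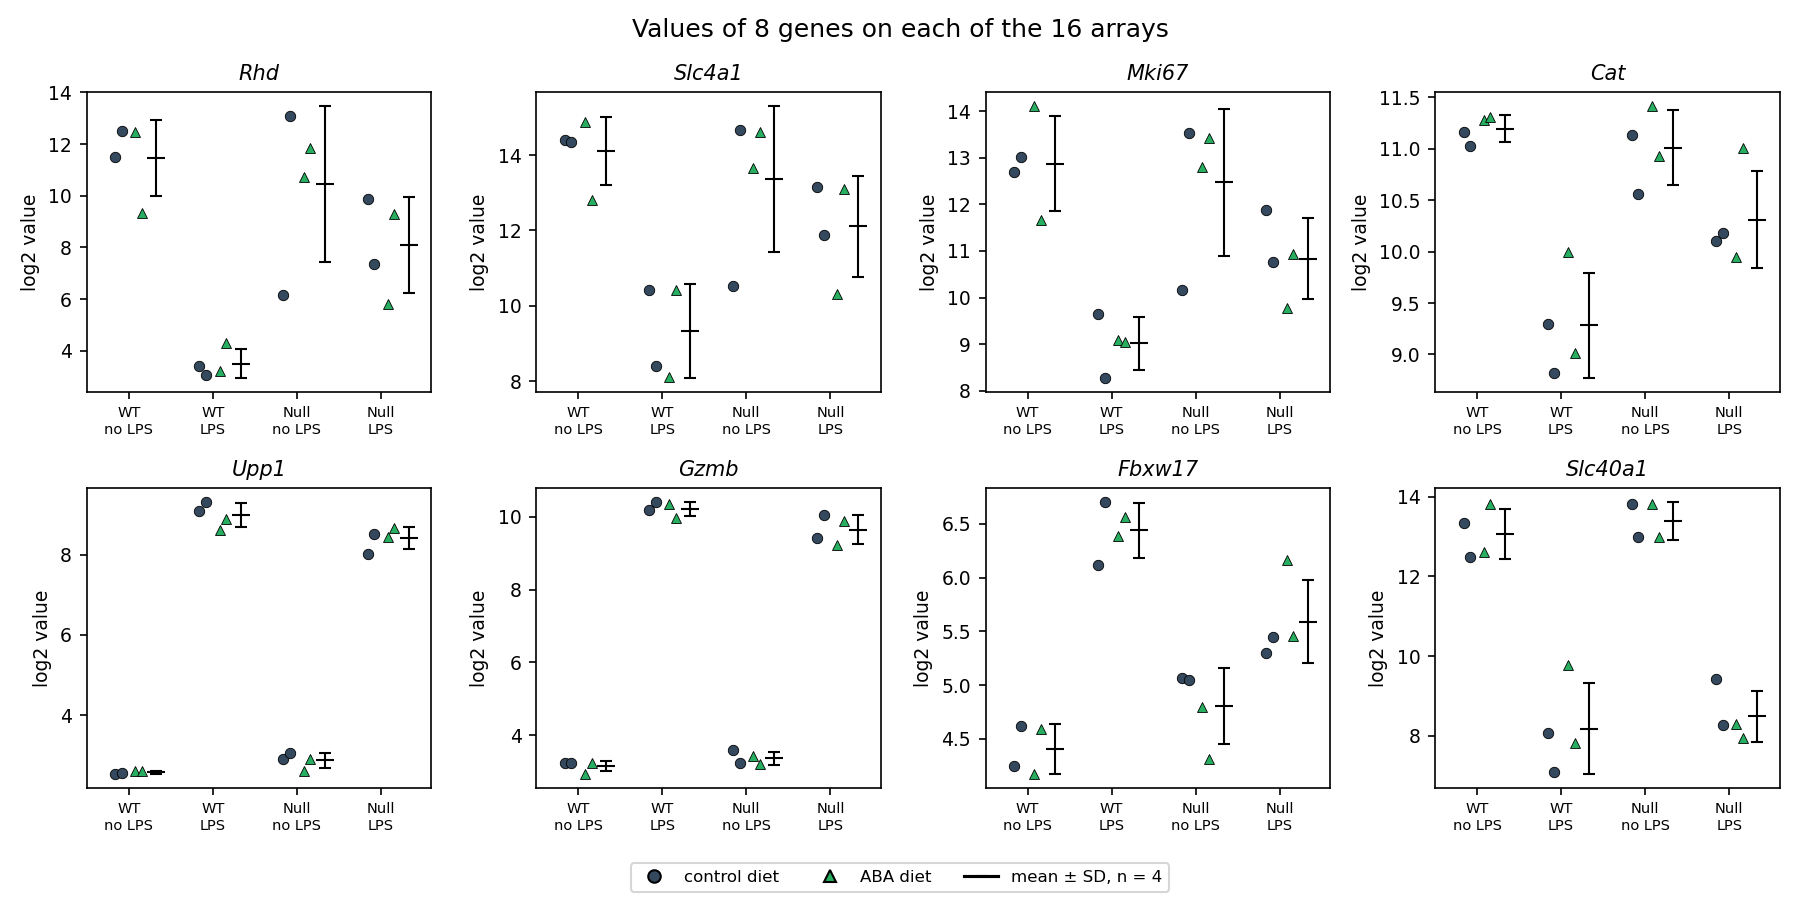
Log2 values of 8 genes on each of the 16 arrays by genotype and challenge; circles are control diet, triangles ABA diet, and bars the mean ± SD of 4 arrays. Upp1 and Gzmb rise in both genotypes with LPS arrays that overlap, Slc40a1 falls in both, and Rhd and Mki67 are higher on all Null than on all wild-type arrays with LPS.

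On the positive side, Gle1, an mRNA export factor, read 7.98, 7.82, 8.10 and 8.04 without and 7.38, 7.46, 7.61 and 7.76 with LPS in wild-type spleens. The Null values were 7.40, 7.64, 7.78 and 7.83 without and 7.87, 7.65, 8.05 and 7.80 with LPS. It had the smallest p of all named genes (interaction 0.61 ± 0.11, unadjusted p 0.000162, limma adjusted p 0.950), but its next brightest probe set gave -0.59, so its probe sets disagree. Cenpo, a kinetochore protein, fell by 1.22 ± 0.16 in wild-type and had a response of -0.16 ± 0.16 in Null spleens (1.06 ± 0.22), and its other 2 probe sets gave 0.49 and -0.06. Pold1, the catalytic subunit of DNA polymerase delta, fell by 1.03 ± 0.21 and had a response of -0.01 ± 0.21 (1.02 ± 0.30). Morn2, Gh and Ubxn2b had interactions of 0.36, 0.61 and 1.56. Other probe sets gave 0.28 and -0.0076 for Gh and 1.02 and -0.40 for Ubxn2b. Morn2 read 3.27 on most Null arrays, and Gh repeated the value 3.26, so their spread is poorly measured. Speg, a kinase of striated muscle, read 5.57, 5.21, 6.83 and 6.47 without and 3.97, 3.14, 5.57 and 5.57 with LPS in wild-type spleens. Those of Null spleens were 2.73, 3.85, 5.57 and 5.57 without and 6.47, 6.11, 5.59 and 5.51 with LPS. On the control diet arrays Speg was lower with LPS in wild-type and higher in Null spleens, and the value 5.57 recurs on 5 arrays. Its interaction was 2.95 ± 0.75, but other Speg probe sets gave -0.16 and 0.23, so its probe sets disagree. Scrn2, Nhsl2, Plcb2 and H1f7 (1.54, 1.06, 1.28 and 1.71) also repeated values between arrays, and for such genes the spread is poorly measured. Another Scrn2 probe set gave -0.0046.

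Gene by gene, the interaction values of the diets had a weak relation. High Xist arrays were unevenly placed within each diet, with Xist interactions of -5.30 (control diet) and 4.91 (ABA diet). Diet and high Xist therefore cannot be told apart in values given by diet. On the 8 control diet arrays 1316 genes had an unadjusted p under 0.05 (10.3%) and on the 8 ABA diet arrays 256 (2.01%), with 0 genes called on either. Of the 1316, 567 had the same sign on the ABA diet and 15 of these also an unadjusted p under 0.05. Over all 12730 genes 6082 (47.8%) had the same sign on both diets, and the values correlated at a Pearson r of 0.18, given as a description across genes. Among the 256 genes beyond 1 log2 unit in size on both diets, 198 (77.3%) had the same sign. The test of the difference between diets called 2 genes of 12730 (0.0157%). H1f7, a linker histone of the testis, had interactions of 2.91 (control diet) and 0.50 (ABA diet) (difference -2.41, limma adjusted p 0.00371), and the clone 1700110K17Rik had 4.96 and 0.23 (-4.74, adjusted p 0.0264). H1f7 read 3.82, 3.77, 4.45 and 4.42 without and 3.13, 3.10, 3.99 and 3.82 with LPS in wild-type spleens. Null samples read 2.24, 2.35, 3.82 and 3.82 without and 4.43, 4.64, 3.82 and 3.76 with LPS, and the value 3.82 recurred on 5 arrays.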

How the data were processed

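Spleen RNA was measured on 45101 probe sets. The deposited values are on the log2 scale, and GCRMA and limma are named per the submitters' processing notes, without version or role. GCRMA subtracts background and gives many low probe sets nearly equal values, so differences near the lowest value are poorly measured. Probe sets were named by the platform annotation: 34945 named 1 gene, 932 several and 9224 none. The probe set of highest mean stood for each gene. Genes above the 40th percentile of their array on 4 or more arrays were fitted with limma 3.58.1 (R 4.3.3), with genotype and challenge groups, a diet term and Benjamini-Hochberg adjustment at 0.05. Genes were named as the 12 of smallest p per direction, up to 2 per list, the strongest responders of the wild-type-only experiment and a few fixed genes. Not every gene so taken is printed, and others were chosen after their values were seen. The members and lists were chosen with earlier results of these data known. On simulated data with 50 genes at each size, interactions of 1, 2, 3 and 4 log2 units were called in 14%, 64%, 84% and 86%, with 6 false calls of 12622. These shares need not hold for the real genes, of which 105 had an interaction over 2 log2 units in size and 0 were called. Genes of wide spread, such as the erythroid list with a median half-width of 3.41, are less well covered. Alternatives covered the filter, normalization, probe set choice, diet, array weights, replicate block and left-out arrays.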

Additional observations from a re-analysis of the deposited data

Results flagged for a closer look

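Dixon's gap test marked a single array off from the other 3 of its group in 19 of 221 group and value combinations. Chance gives about 1 in 20 for values without ties, but many values here are tied, so the counts cannot be set against that rate. Where the other 3 arrays share a value, any gap is marked, however small. This held for Gzmb, Socs1, Mmp13 and for Tek in Null spleens with LPS. The wild-type ABA diet array 1 without LPS was the high or low one for the B cell list mean (8.92, others 10.19 to 10.44), the fat list mean (7.31, others 4.73 to 5.06), the liver list mean (3.64, others 2.39 to 2.44), Apol11b (11.21), Gzmb (2.93) and Ctrl (2.85). The first Null control diet array with LPS stood apart for the oxidative phosphorylation mean (11.02, others 11.10 to 11.11) and the liver mean (3.55). The first wild-type ABA diet array with LPS did so for the T cell mean (7.20, others 7.67 to 7.76) and Cd163 (4.99). Tek stood apart on 1 array of wild-type with LPS (3.09), Null without LPS (6.24) and Null with LPS (3.06).

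Thbs4 stood apart at 3.05 in Null spleens without LPS, where the others read 3.56 to 3.58. In groups whose other arrays lay near the lowest value, Vars stood apart at 3.11 in wild-type and 3.31 in Null spleens without LPS, Socs1 at 2.30 in Null spleens with LPS, and Mmp13 at 2.31 and 2.26 without LPS. For 2 genes the interaction differed between the diets by limma's test of that difference: H1f7 by -2.41 and 1700110K17Rik by -4.74 log2 units, ABA diet minus control diet.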

How the results depend on the processing

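Of 57 named genes, 40 kept the direction and the side of the threshold of their interaction under all 33 alternatives. The interaction count of 0 was 3 with 8 cell means (1700110K17Rik, H1f7 and Scrn2, the last 2 at 1.71 and 1.54), 2 without the high Cpa1 arrays (Cnn1 and Esr1) and 2 without the high Adipoq arrays (Gpr85, and Socs1 at -2.76), the last chosen after seeing the data and leaving Null spleens with LPS on the ABA diet only. Genes called for LPS in wild-type and Null spleens were 3084 and 1523 with array weights, 617 and 459 from control diet arrays, 116 and 101 from ABA diet arrays, 885 and 2135 with the erythroid covariate, and 507 and 327 without the high Adipoq arrays. Null against wild-type spleens gave 3 genes without and 1 with LPS under 8 cell means, 4 with LPS on the control diet, 12 without LPS without the high Cpa1 arrays, and 2 with LPS without the high Adipoq arrays. The cause was not tested. Fewer arrays entered the fits by diet and without marked arrays. Leaving out each array gave 0 to 0 interaction calls, 1101 to 2213 for LPS in wild-type, 603 to 1133 for LPS in Null spleens, 0 to 1 with LPS and 0 to 0 without.

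Some interactions turned sign. Slc40a1 was 0.13 with quantile normalization, 0.12 with centred arrays, 0.46 with the mean of all probe sets, 0.79 on the control diet and 0.24 with the erythroid covariate. Pparg was 0.13 with centred arrays, 0.19 on the ABA diet, 0.52 with the erythroid covariate and 0.067 without the high Adipoq arrays. Tlr4 was -0.16 with the mean of all probe sets, -0.070 on the control diet and -0.059 without the high Cpa1 arrays. Xist was 0.41 with the mean of all probe sets, 4.91 for the ABA diet and 2.55 without the high Cpa1 arrays. On the control diet Cd163 was 0.61, Il6 -0.42 and Lancl2 -0.36. On the ABA diet Acod1 was 0.30, Cxcl9 0.60, Saa3 -0.14 and Tnf 0.78. With the erythroid covariate Cxcl9 was 0.63, Il1b 0.65, Lancl2 -0.13, Mki67 -0.087 and Tnf 0.35. Without the high Adipoq arrays Acod1 was 0.080, Cd163 0.13, Il1b 0.31 and Tnf 0.69, and without the high Cpa1 arrays Ctrl was 0.26. Leaving out each array spanned -0.80 to 0.35 for Cd163, -0.21 to 1.22 for Il6, -0.22 to 0.62 for Lancl2, -0.28 to 0.14 for Pparg, -0.41 to 0.51 for Slc40a1, -0.28 to 0.31 for Tlr4, -0.68 to 0.13 for Tnf and -3.15 to 2.79 for Xist.

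With the replicate number as a block, 0 interactions, 1648 wild-type and 794 Null LPS responses were called, and the block changed the call of no named interaction and moved no count by over 1.5 times. Deviations of same-numbered arrays correlated at -0.71 to 0.50 over 28 group pairs, so the numbers do not pair the arrays.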
